A study of Mus musculus with 15 samples.

Results

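The comparison described here is the response of mouse embryonic stem cells to Activin A in the presence of a control siRNA. Its members are 6 of the 15 libraries of the series, chosen by their titles: 3 with control siRNA and Activin A, and 3 with control siRNA and no addition. All 14600 genes that passed a minimum-count filter, of 24451 in the table, were compared. The cells were of the ES-R1 line, labelled as embryonic stem cells from the inner cell mass and kept below passage 20 without serum in medium supplemented with N2 and B27. Differentiation lasted 4 days, and Activin A was given at 25 ng/ml. Both groups carried the control siRNA, so no library of this comparison is free of siRNA. The 3 further groups of 3 libraries each supply context: control siRNA with the receptor inhibitor SB, Vprbp siRNA without addition, and Vprbp siRNA with Activin A. The inhibitor is spelled SB431524 in the titles and SB431542 in the series text, and its dose is not stated. All libraries come from 1 cell line, and the labels do not say whether replicates were separate cultures, so the p-values here reflect variation among these libraries alone, and that variation may be technical.

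Activin A is a ligand of the TGF-beta superfamily. It binds type II receptors, which recruit the type I receptor ALK4 (Acvr1b), and the receptor complex phosphorylates Smad2 and Smad3, which enter the nucleus with Smad4 and act with partners such as Foxh1. Nodal uses the same receptors together with a coreceptor of the Cripto family, and many genes switched on by the pathway encode its own inhibitors. In pluripotent cells the pathway is known for opposing neural differentiation, for supporting the primed state of the epiblast and, at higher or longer exposure, for mesendoderm formation.

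Depth was similar in all 6 libraries, with 11.1 M to 15.3 M (M, mega) counts assigned to genes. Values are CPM, each gene's count as a rate on library sizes scaled by TMM, and 3 counts, taken as the limit that a count of 0 allows, correspond to 0.198 to 0.271 CPM. That limit covers counting error only. Markers of embryonic stem cells were present in both groups: Pou5f1 measured 688, 673 and 741 CPM in untreated replicates 1 to 3 and 822, 750.3 and 797 CPM with Activin A. Sox2 (means of 823 ± 139 and 854 ± 71.1 CPM, SD, n = 3), Nanog (403 ± 38.5 and 411 ± 16.4), Utf1 and Dppa5a were likewise expressed in every library.

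Of the 3 untreated libraries with control siRNA, 1 stood apart from the others. Over the 6 libraries, principal component 1 held 46.7% of the variance. Untreated replicate 3 lay at 38.1 on it, untreated replicates 1 and 2 at 8.80 and 12.1, and the Activin libraries between -21.2 and -17.9. Its counts differed from those of untreated replicates 1 and 2 with chi-square values of 16.7 and 12.2 per degree of freedom, against 4.86 between replicates 1 and 2 and 2.82 to 3.41 between the Activin libraries. Untreated replicate 3 was the untreated library farthest from the Activin libraries in 311 of the 431 genes called higher and in 193 of the 274 called lower. The calls used this library, so these counts may be partly set by the choice of genes, and no share over all genes is given. Because it stood apart on principal component 1 and in the chi-square values, results below are given with and without untreated replicate 3 where it changes them.

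Activin A changed a small part of the transcriptome, and the changes were mostly modest. A gene is called changed when its adjusted p was below 0.05 (edgeR quasi-likelihood test, Benjamini-Hochberg adjustment over all genes). By this rule 705 genes were called, 4.83% of those tested, of which 431 (2.95%) were higher and 274 (1.88%) lower. Of the genes called higher, 206 rose by more than 1.5-fold, 110 by more than 2-fold and 17 by more than 4-fold. Of those called lower, 119 fell by more than 1.5-fold, 33 by more than 2-fold and 8 by more than 4-fold. In bulk RNA, fewer cells of a type and less RNA per cell cannot be told apart. The median log2 fold change was 0.57 among genes called higher, -0.50 among those called lower and -0.01 over all genes. All 3 Activin libraries lay above all 3 untreated libraries in 431 of the 431 genes called higher, and below them in 272 of the 274 called lower. Over all genes tested, called or not, 14.0% were separated in this way upward and 13.6% downward. The calls rest on these same libraries, so the separation of called genes is not further evidence for them.

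The called share rose with expression level, from 1.39% of the 1076 genes with a mean below 1 CPM to 4.11% between 1 and 10 CPM, 5.25% between 10 and 100 CPM and 6.10% at 100 CPM or more. Summed over the genes called higher, mean levels went from 31458 to 42919 CPM, and over those called lower from 20542 to 15172 CPM. Without untreated replicate 3, 306 genes were called (196 higher and 110 lower), which held 182 of the 431 and 101 of the 274. Omitting 1 of the Activin libraries gave 265 to 352 calls, and omitting untreated replicate 1 or 2 gave 721 or 448. A lower count is therefore not particular to the omission of untreated replicate 3. Leaving out each library in turn, 131 of the genes called higher and 64 of those called lower kept their call in all 6 fits.

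**Figure D1:**
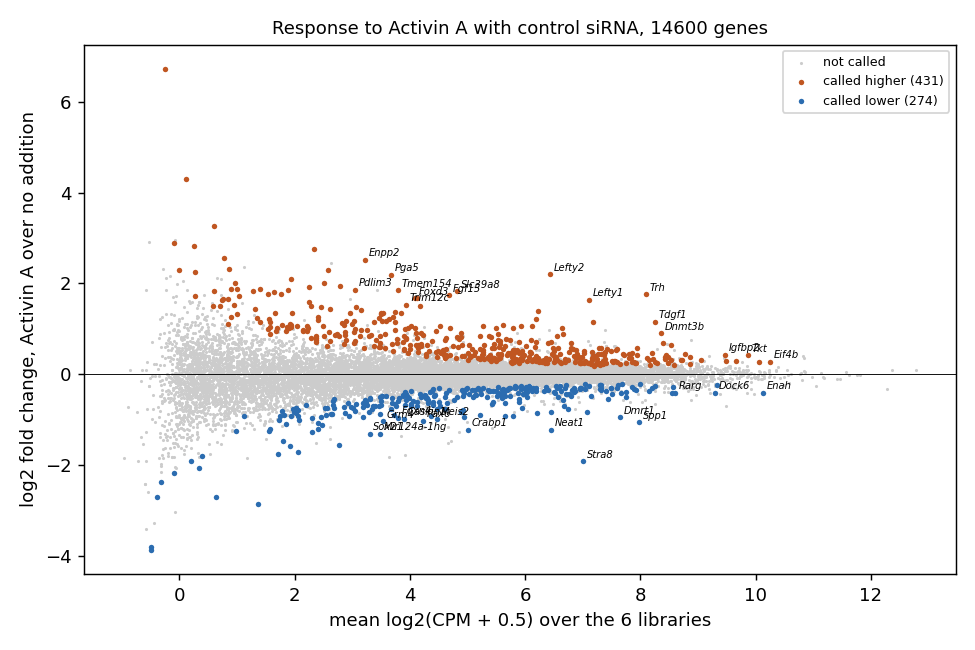
Each point is 1 of 14600 genes, with its mean log2(CPM + 0.5) over the 6 libraries on the horizontal axis and its fitted log2 fold change (Activin A over no addition, control siRNA) on the vertical axis. The 431 genes called higher are orange and the 274 called lower are blue; most of them lie within 1 log2 unit of 0.

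Within the pathway itself, the ligand Nodal, the coreceptor Tdgf1, 2 of 6 extracellular antagonists and 3 of 8 intracellular inhibitors were called higher, and 0 of 6 receptors and 0 of 3 Smads were called. Of 37 tested parts of the Activin/Nodal pathway, 7 were called higher and 0 lower, beside 2.95% and 1.88% of all genes, and their median log2 fold change was 0.08. The 7 were the ligand Nodal, the coreceptor Tdgf1, the secreted antagonists Lefty1 and Lefty2, and the intracellular inhibitors Smad7, Pmepa1 and Ski. Without untreated replicate 3 the count was 4.

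Among the ligands, 1 of 7 was called, beside 4.83% of all genes. Nodal measured 84.8, 83.9 and 63.6 CPM in untreated replicates 1, 2 and 3, and 114, 112 and 122 CPM in Activin replicates 1, 2 and 3. The groups did not overlap, and the log2 fold change was 0.58 ± 0.10 (SE; adjusted p = 0.0024, edgeR). Gdf3, a relative of Nodal expressed in pluripotent cells, averaged 82.7 ± 5.75 CPM without and 82.6 ± 3.96 CPM with Activin A. Inhbb, which encodes a subunit of activin B, had a log2 fold change of -0.21 ± 0.12, short of the threshold.

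The coreceptor Tdgf1 (Cripto), which Nodal needs for signalling, was among the 6 called genes with the largest gains in CPM (gene span chr9:110939608-110946158, GRCm38). Its untreated levels were 266, 226 and 130.3 CPM and its Activin levels 504, 455 and 433 CPM. Each Activin library lay above each untreated library, but untreated replicate 3 was well below the other two, and the log2 fold change of 1.16 ± 0.28 had an adjusted p of 0.042 (edgeR). Of the 6 receptors tested, 0 were called, which is near the 4.83% called over all genes. Their log2 fold changes ran from -0.50 for Tgfbr2, a receptor of TGF-beta, to 0.22 for Acvr2b, a type II activin receptor, with -0.18 for Acvr1b itself. Smad2, Smad3 and Smad4 stayed between -0.09 and 0.09 on the log2 scale with standard errors of at most 0.10, and Foxh1 had 0.06 ± 0.07.

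Promoter windows of Nodal and Tdgf1 are shown because they are the ligand and coreceptor that rose. The windows, from RefSeq on GRCm38.p6, run from 250 bases before to 50 after an annotated start and are written 5′ to 3′ on the gene's strand. Capitals mark AGAC, the short Smad-binding motif, and TGTNNATT, a motif of Foxh1, on either strand. The Nodal window is chr10:61417722-61418021 (plus strand) and the Tdgf1 window chr9:110946109-110946408 (minus strand).
Nodal: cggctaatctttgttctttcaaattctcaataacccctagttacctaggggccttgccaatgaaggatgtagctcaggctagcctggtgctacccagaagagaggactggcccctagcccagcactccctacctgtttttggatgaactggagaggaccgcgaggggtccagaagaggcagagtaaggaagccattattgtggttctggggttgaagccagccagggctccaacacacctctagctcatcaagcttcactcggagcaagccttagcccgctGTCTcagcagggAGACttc
Tdgf1: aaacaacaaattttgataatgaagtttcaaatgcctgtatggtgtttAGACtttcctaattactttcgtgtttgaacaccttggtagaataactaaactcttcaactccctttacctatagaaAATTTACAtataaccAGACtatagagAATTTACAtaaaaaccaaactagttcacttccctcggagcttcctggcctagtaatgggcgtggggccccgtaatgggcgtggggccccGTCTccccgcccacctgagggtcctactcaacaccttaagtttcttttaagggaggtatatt

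The Nodal window held 2 AGAC matches, and the Tdgf1 window 3 AGAC and 2 TGTNNATT matches. Over all windows AGAC is common: it occurred in 85.8% of 437 windows of genes called higher, 80.3% of 290 windows of genes called lower and 85.4% of 14637 windows of all genes tested. TGTNNATT occurred in 8.47%, 6.90% and 7.07% of the same windows. The table covers 11495 of the 14600 genes, and a match is a match of letters, not a bound site.

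The extracellular antagonists Lefty1 and Lefty2, which block Nodal, had the largest changes of the pathway's called parts. Both genes lie on chromosome 1 (chr1:180893108-180899107 for Lefty2 and chr1:180935022-180938401 for Lefty1, GRCm38). Lefty2 measured 56.4, 55.4 and 16.6 CPM in the untreated libraries and 199, 179.8 and 214 CPM with Activin A, a log2 fold change of 2.20 ± 0.42 (adjusted p = 0.017, edgeR). Lefty1 measured 102, 105 and 38.1 CPM and 253, 239 and 272 CPM, a log2 fold change of 1.64 ± 0.39 (adjusted p = 0.041, edgeR). In both genes the Activin libraries were close together and untreated replicate 3 lay well below the other untreated libraries. Without it the log2 fold change was 1.82 (adjusted p = 0.027) for Lefty2 and 1.3 (adjusted p = 0.10) for Lefty1 (edgeR). An exact two-sided permutation test of 3 against 3 libraries gave p = 0.1 for Lefty1, Lefty2 and Nodal alike, which is the smallest p this design allows. Lefty1 and Lefty2 are close paralogs, so reads may have been split between them.

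The intracellular inhibitors were called higher in 3 of 8 cases, beside 2.95% of all genes. Pmepa1, which sequesters receptor-regulated Smads, rose from 39.3, 44.0 and 39.3 CPM to 66.1, 68.1 and 71.9 CPM, with a log2 fold change of 0.75 ± 0.09 (adjusted p = 6.5e-05, edgeR). The groups lay well apart relative to their spread. Smad7, which blocks the type I receptor, went from 61.3, 46.6 and 37.4 CPM to 96.5, 92.8 and 112 CPM (log2 fold change 1.05 ± 0.17, adjusted p = 0.0040, edgeR). Ski, a corepressor that binds Smads, went from 383, 385 and 350.5 CPM to 431, 464 and 492 CPM, a smaller change of 0.31 ± 0.07 on the log2 scale. Its relative Skil, with untreated levels of 355, 299 and 198 CPM and Activin levels of 455, 469 and 431 CPM, narrowly missed the threshold (log2 fold change 0.67 ± 0.18, adjusted p = 0.053, edgeR). Smurf1, Smad6 and Bambi had log2 fold changes of 0.00, -0.10 and 0.24.

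The SB libraries give the low end of the same genes. Because they would be compared with the same untreated libraries, their levels are set beside the others without a test. Lefty1 was at 1.38, 1.81 and 1.504 CPM and Lefty2 at 1.31, 0.723 and 1.07 CPM in SB replicates 1 to 3. Nodal was at 34.0 to 43.2 CPM, Smad7 at 10.6 to 14.2 CPM, Pmepa1 at 11.4 to 13.7 CPM and Tdgf1 at 23.5 to 33.5 CPM. For each of these 6 genes the SB libraries lay below every untreated library. In a list of 12 feedback and target genes that overlaps the pathway parts, 8 were called higher and 0 lower, beside 2.95% and 1.88% of all genes, with a median log2 fold change of 0.90, and without untreated replicate 3 the count was 5. When each of the 6 libraries was left out in turn, Nodal, Pmepa1 and Smad7 kept their calls. By edgeR the omission of 1 library ended the call of Lefty1 in 6 of 6 fits (adjusted p up to 0.12, without Activin replicate 3), Lefty2 in 1 of 6 fits (adjusted p up to 0.062, without Activin replicate 3), Tdgf1 in 5 of 6 fits (adjusted p up to 0.13, without Activin replicate 1) and Ski in 3 of 6 fits (adjusted p up to 0.088, without Activin replicate 3).

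**Figure D2:**
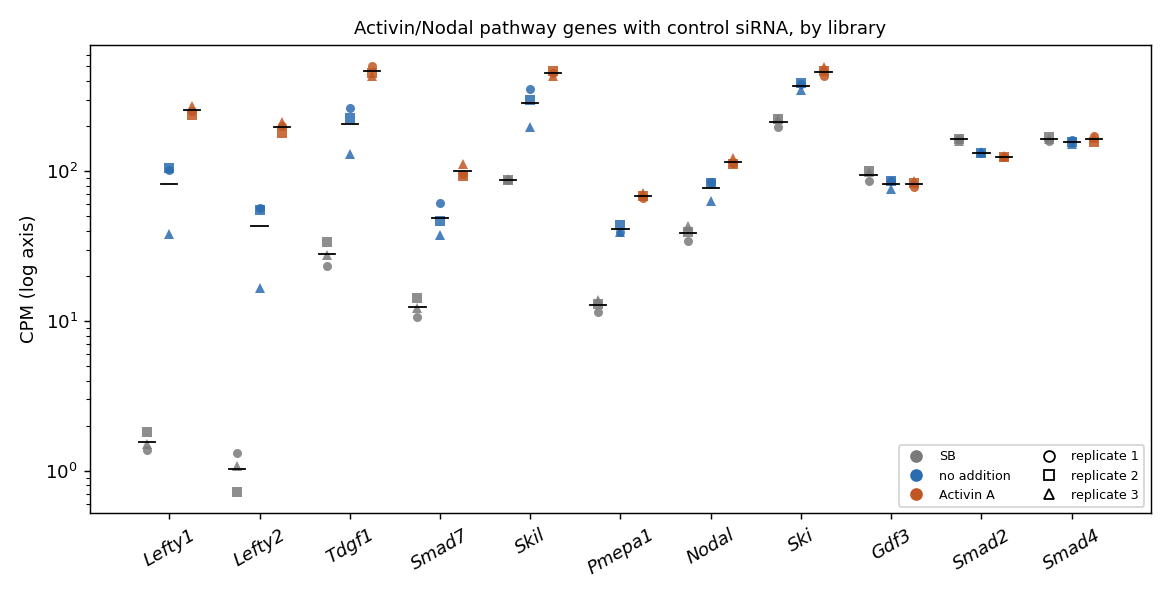
CPM of 11 pathway genes on a log axis in the control siRNA libraries; each point is 1 library, its shape gives the replicate number, its colour the addition (SB, none or Activin A), and black bars are means of 3. Lefty1, Lefty2 and Tdgf1 span the widest ranges, and the blue triangles of untreated replicate 3 lie below the other untreated points in most of the genes that rose.

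The largest rises took in Lefty1 and Lefty2 and genes outside the pathway. By a rule that took the 12 largest rises among called genes whose log2(CPM + 0.5) averaged 3 or more and whose groups did not overlap, these included Enpp2, Lefty2, Pga5, Pdlim3, Tmem154, Slc39a8, Trh, Fgf15, Foxd3, Lefty1 and Trim12c. Enpp2, which encodes autotaxin, the secreted enzyme that makes lysophosphatidic acid, went from 4.68, 5.73 and 1.20 CPM to 22.3, 24.0 and 21.0 CPM (log2 fold change 2.52 ± 0.57, adjusted p = 0.034, edgeR). Untreated replicate 3 was again the lowest. Slc39a8, a zinc and manganese importer, went from 15.3, 17.0 and 11.8 CPM to 52.8, 55.0 and 49.1 CPM, with all untreated libraries far below all Activin libraries (log2 fold change 1.83 ± 0.19, adjusted p = 1.6e-04, edgeR).

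Fgf15, a secreted fibroblast growth factor, rose from 15.1, 14.6 and 11.8 CPM to 45.8, 42.6 and 50.1 CPM and lay at 1.89, 0.941 and 1.504 CPM under SB (log2 fold change 1.74 ± 0.22, adjusted p = 7.0e-04, edgeR). Foxd3, a forkhead factor of the epiblast and neural crest, rose from 13.4, 10.2 and 5.17 CPM to 29.5, 27.0 and 35.5 CPM (log2 fold change 1.67 ± 0.27). Pga5, a pepsinogen, and Pdlim3, a PDZ and LIM domain protein of the cytoskeleton, had log2 fold changes of 2.19 ± 0.43 and 1.87 ± 0.28. Tmem154 and Trim12c had 1.85 ± 0.28 and 1.53 ± 0.29. Trh, the precursor of thyrotropin-releasing hormone, combined a large fold with a high level, from 219, 174 and 74.9 CPM to 546, 489 and 556 CPM, and had the largest gain in CPM of all named called genes (log2 fold change 1.76 ± 0.42, adjusted p = 0.042, edgeR). Its untreated libraries differed by more than 2-fold among themselves. Slc39a8, Fgf15, Foxd3, Pdlim3, Tmem154 and Trim12c kept their calls when any 1 of the 6 libraries was left out. By edgeR such omissions ended the call of Enpp2 in 6 of 6 fits (adjusted p up to 0.12, without untreated replicate 3), Pga5 in 3 of 6 fits (adjusted p up to 0.099, without untreated replicate 3) and Trh in 5 of 6 fits (adjusted p up to 0.12, without Activin replicate 3).

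Apart from Trh and Tdgf1, the 6 largest gains in CPM were in abundant genes that rose by less than 2-fold. Dnmt3b, the de novo DNA methyltransferase of the primed epiblast, rose from 255, 245 and 223 CPM to 445, 447 and 461 CPM (log2 fold change 0.90 ± 0.12, adjusted p = 5.7e-04, edgeR). Tkt, the transketolase of the pentose phosphate pathway, rose from 819.6, 803 and 795 CPM to 1113, 1029.5 and 1088 CPM and was at 396 to 410.4 CPM under SB. Igfbp2, a binding protein of insulin-like growth factors, and Eif4b, a translation initiation factor, had log2 fold changes of 0.43 ± 0.11 and 0.28 ± 0.07. Dnmt3b and Tkt kept their calls in all 6 omissions of a library. Omissions ended the call of Igfbp2 in 5 of 6 fits (adjusted p up to 0.19, without untreated replicate 3) and Eif4b in 4 of 6 fits (adjusted p up to 0.12, without untreated replicate 3) by edgeR.

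By the same rule the largest fall was that of Stra8, and 2 of the 12 genes named, Sox21 and Pax6, are in the neural plate list described below. The 12 were Stra8, Mir124a-1hg, Sox21, Neat1, Crabp1, Spp1, Grm4, Pax6, Meis2, Caskin1, Foxn4 and Dmrt1. Sox21, a Sox factor of neural progenitors, fell from 15.3, 15.5 and 13.3 CPM to 6.81, 5.78 and 5.22 CPM (log2 fold change -1.31 ± 0.19, adjusted p = 5.3e-04, edgeR). Pax6, the paired-box factor of the eye and forebrain, fell from 27.5, 27.3 and 23.3 CPM to 11.0, 15.1 and 12.3 CPM (log2 fold change -1.03 ± 0.14, adjusted p = 3.2e-04, edgeR). Both genes were higher under SB than in any untreated library, at 28.3 to 30.4 CPM and 41.4 to 46.0 CPM.

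Mir124a-1hg, the host transcript of a neuronal microRNA, had a log2 fold change of -1.32 ± 0.31, and Grm4, a glutamate receptor, of -1.04 ± 0.17. Foxn4 and Caskin1 had log2 fold changes of -0.95 ± 0.20 and -0.98 ± 0.13. Dmrt1, a factor of the germ line, fell from 249, 259 and 330.3 CPM to 152, 139.9 and 141 CPM (log2 fold change -0.95 ± 0.14, adjusted p = 0.0019, edgeR). Spp1, which encodes the secreted protein osteopontin, went from 305, 305 and 501 CPM to 173, 187 and 173 CPM, with untreated replicate 3 far above the other untreated libraries (log2 fold change -1.06 ± 0.24, adjusted p = 0.036, edgeR). Neat1, a nuclear long noncoding RNA, had 119.6, 108 and 179 CPM and 63.0, 61.3 and 49.3 CPM. Among the largest losses in CPM were also Enah, an actin regulator, with a log2 fold change of -0.41 ± 0.07, Dock6, a guanine nucleotide exchange factor, with -0.41 ± 0.10, and Rarg, described below. Sox21, Pax6, Grm4, Foxn4, Caskin1, Dmrt1 and Enah kept their calls when any 1 library was left out, and omissions ended the call of Mir124a-1hg in 6 of 6 fits (adjusted p up to 0.13, without Activin replicate 3), Spp1 in 4 of 6 fits (adjusted p up to 0.12, without untreated replicate 3), Neat1 in 6 of 6 fits (adjusted p up to 0.17, without untreated replicate 3) and Dock6 in 5 of 6 fits (adjusted p up to 0.12, without Activin replicate 3) by edgeR. Caskin1 overlaps Traf7, Pax6 overlaps Elp4 and Dock6 overlaps Gm6484 in RefSeq, and without a stated strand setting such reads cannot be told apart.

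Of the genes with the smallest p-values, only Stra8 was among the largest rises and falls named above. Meis1 had a log2 fold change of -1.71, but its mean log2(CPM + 0.5) of 2.05 was below the 3 required there. The 12 smallest, chosen after their values were seen, were 10 rises of about 1.6-fold to 2.1-fold and the falls of Stra8 and Meis1. Tmem63a, a mechanosensitive ion channel, went from 27.0, 28.1 and 24.0 CPM to 51.9, 55.4 and 57.5 CPM (log2 fold change 1.06 ± 0.10, adjusted p = 1.2e-05, edgeR). Fam3c, a secreted protein, went from 47.6, 46.0 and 32.7 CPM to 85.5, 88.3 and 90.1 CPM (log2 fold change 1.06 ± 0.10), and Bcar3, an adaptor of adhesion signalling, from 55.2, 55.1 and 46.9 CPM to 85.4, 89.6 and 89.7 CPM (0.75 ± 0.07). In all 3 genes the groups did not overlap. The other rises were Dab2, Bhlha15, Pmepa1, Zfp608, Sfxn1, Arl4a and Abcg2, with log2 fold changes of 1.01, 1.03, 0.75, 1.07, 0.83, 0.71 and 0.71. All 12 kept their calls when any 1 of the 6 libraries was left out.

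**Figure D3:**
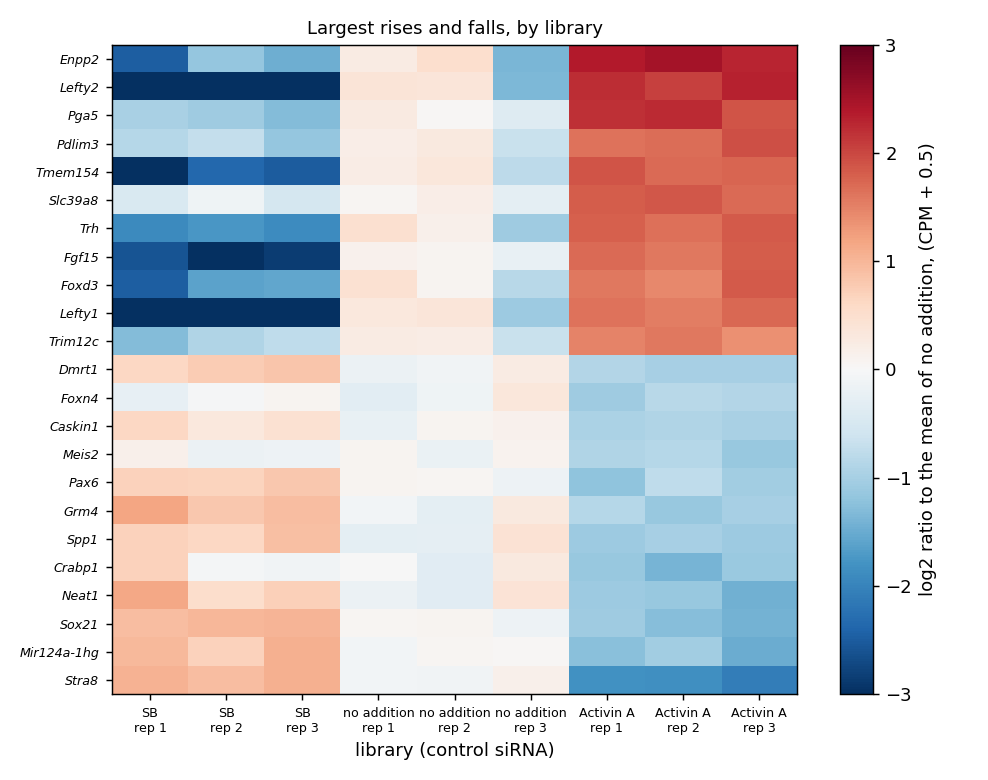
Log2 ratio of (CPM + 0.5) to the mean of the untreated libraries, for 11 of the 12 largest rises (top) and the 12 largest falls (bottom), with 1 column per control siRNA library (SB, no addition, Activin A). The 3 Activin columns look alike. Within the untreated columns replicate 3 is lower than replicates 1 and 2 for most rising genes. The colour scale ends at 3 units, which Lefty1 and Lefty2 pass under SB, as does Fgf15 in SB replicate 2.

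Genes of retinoic acid signalling fell more often than they rose. Retinoic acid, made from vitamin A, enters the nucleus with the help of cellular binding proteins and activates heterodimers of RAR and RXR receptors. Of 25 tested genes of this pathway, 2 were called higher and 8 lower, beside 2.95% and 1.88% of all genes, with a median log2 fold change of -0.41. Without untreated replicate 3, 0 were called higher and 6 lower.

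Among 8 genes listed as induced by retinoic acid, 4 were called lower and 0 higher, beside 1.88% and 2.95% of all genes. All 8 had negative estimates, from -1.92 to -0.35. This group leaves out the receptors and breakdown enzymes, which were listed apart and went in both directions. Stra8 (chr6:34920163-34939344, GRCm38), named for its stimulation by retinoic acid and needed for entry into meiosis, fell from 235, 234 and 279 CPM to 70.5, 69.2 and 58.6 CPM and lay at 513, 471 and 519.6 CPM under SB. Its log2 fold change was -1.92 ± 0.14 (adjusted p = 1.2e-05, edgeR), and it had one of the 4 smallest p-values of all genes. Meis1, a TALE homeobox factor, fell from 7.73, 5.58 and 6.14 CPM to 1.91, 1.99 and 2.05 CPM (log2 fold change -1.71 ± 0.18, adjusted p = 1.8e-05, edgeR). The ordering across SB, untreated and Activin libraries was without overlap for both genes.

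The promoter window of Stra8 (chr6:34920698-34920997, plus strand, same source and span around the start) is shown because Stra8 had the largest fall by the rule above. Capitals mark AGGTCA, a short motif bound by many nuclear receptors, on either strand.
Stra8: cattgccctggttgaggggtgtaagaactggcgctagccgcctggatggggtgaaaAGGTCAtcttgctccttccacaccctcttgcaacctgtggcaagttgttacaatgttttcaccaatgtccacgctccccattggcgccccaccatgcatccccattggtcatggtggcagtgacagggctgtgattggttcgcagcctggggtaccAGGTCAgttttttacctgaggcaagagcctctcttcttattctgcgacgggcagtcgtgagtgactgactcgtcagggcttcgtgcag

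The Stra8 window held 2 AGGTCA matches. AGGTCA occurred in 14.4% of the windows of genes called higher, 12.4% of those called lower and 12.5% of all. Meis2, a relative of Meis1, fell from 32.2, 26.5 and 33.1 CPM to 16.2, 16.6 and 13.8 CPM, while the SB libraries, at 27.0 to 33.9 CPM, overlapped the untreated ones. Nr2f1 and Nr2f2, which encode orphan nuclear receptors, had estimates of -1.3 ± 0.66 and -1.49 ± 0.50 that did not pass the test.

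The binding proteins Crabp1 and Crabp2 were both called lower. Crabp1 went from 48.6, 38.5 and 60.3 CPM to 22.2, 18.4 and 22.3 CPM and Crabp2 from 10.0, 7.54 and 15.1 CPM to 3.44, 4.25 and 3.44 CPM, with log2 fold changes of -1.22 ± 0.24 and -1.56 ± 0.31. Of the receptors, Rarg fell from 417, 429 and 492 CPM to 341, 337 and 330.4 CPM (log2 fold change -0.41 ± 0.07, adjusted p = 0.0031, edgeR) and Rarb had a log2 fold change of -0.67 ± 0.17. Rxrg moved the other way, from 5.09, 3.55 and 1.80 CPM to 10.8, 7.77 and 10.1 CPM, and it was at 9.30, 13.0 and 9.38 CPM under SB, so both additions lay above the untreated level. Dhrs3, a retinal reductase that lowers retinoic acid supply, was called higher (0.78 ± 0.20 on the log2 scale), and the breakdown enzyme Cyp26a1 had a wide estimate of -0.20 ± 0.62. Calls held in all 6 omissions of a library for Stra8, Meis1, Meis2 and Rarg. Omissions ended the call of Crabp1 in 4 of 6 fits (adjusted p up to 0.085, without untreated replicate 3), Crabp2 in 2 of 6 fits (adjusted p up to 0.066, without Activin replicate 3), Rarb in 4 of 6 fits (adjusted p up to 0.12, without Activin replicate 3), Rxrg in 4 of 6 fits (adjusted p up to 0.087, without Activin replicate 3) and Dhrs3 in 4 of 6 fits (adjusted p up to 0.15, without Activin replicate 3) by edgeR.

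Most of the interferon-inducible GTPases tested rose, at low levels of expression. The IRG and GBP families are GTPases that defend cells against intracellular pathogens and are known as targets of interferon gamma; the list was drawn up knowing that Irgm2 had risen in these libraries. Of 11 members, 8 passed the minimum-count filter and were tested. Of these, 6 were called higher and 0 lower, beside 2.95% and 1.88% of all genes. In 8 of 8 the Activin libraries lay above all untreated libraries, beside 14.0% of all genes, and the median log2 fold change was 1.74. At such low levels a gene could pass the filter through the libraries where it is high, which limits what these counts show. Their summed level was 10.5 to 23.5 CPM in the untreated libraries, 63.1 to 66.0 CPM with Activin A and 9.52 to 11.9 CPM under SB. The lowest untreated sum was that of replicate 3, and without it the count of called genes was 2 and the median 1.43.

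Irgm2 rose from 2.71, 3.41 and 1.27 CPM to 12.5, 12.3 and 11.6 CPM (log2 fold change 2.29 ± 0.40, adjusted p = 0.0066, edgeR). Gbp7 rose from 2.58, 3.12 and 1.65 CPM to 7.27, 6.59 and 8.33 CPM (log2 fold change 1.59 ± 0.30, adjusted p = 0.0044, edgeR). Both kept their calls when any 1 library was left out. Igtp, Irgm1, Gbp2 and Gbp4 had log2 fold changes of 2.00 ± 0.42, 1.95 ± 0.44, 1.47 ± 0.32 and 1.88 ± 0.44, and omissions ended the call of Igtp in 3 of 6 fits (adjusted p up to 0.1, without untreated replicate 3), Irgm1 in 5 of 6 fits (adjusted p up to 0.10, without untreated replicate 3), Gbp2 in 5 of 6 fits (adjusted p up to 0.13, without untreated replicate 3) and Gbp4 in 3 of 6 fits (adjusted p up to 0.080, without untreated replicate 3) by edgeR. Gbp3 and Gbp9, at 1.58 ± 0.50 and 1.17 ± 0.40, did not pass the test. Members of these families are similar in sequence, so reads may be shared between them.

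Genes of the wider interferon response rose in part. Of 28 tested, 9 were called higher and 0 lower, beside 2.95% and 1.88% of all genes, with a median log2 fold change of 0.44, and without untreated replicate 3 the count was 3. Parp14, an ADP-ribosyltransferase, went from 10.7, 11.7 and 9.66 CPM to 22.9, 22.9 and 18.8 CPM (log2 fold change 1.01 ± 0.14, adjusted p = 2.7e-04, edgeR) and kept its call in all 6 omissions of a library. Irf1, a transcription factor of the interferon pathways, went from 59.0, 60.5 and 23.7 CPM to 126, 124 and 127 CPM, a change of 1.39 ± 0.33 on the log2 scale. Psmb8, an immunoproteasome subunit, and Zbp1, a nucleic acid sensor, had log2 fold changes of 1.76 ± 0.37 and 1.83 ± 0.39. Irf9, a subunit of an interferon-activated transcription complex, had -0.07 ± 0.10. Ddx58, the RNA sensor RIG-I, was called higher (0.64 ± 0.16) and was higher still under SB, at 38.8 to 43.4 CPM against 12.5 to 17.5 CPM untreated. Ifit1 was near the counting limit, at 0.407, 0.145 and 0.0749 CPM untreated and 2.22, 1.35 and 1.19 CPM with Activin A. Of the 6 libraries, only those with Activin A reached the filter's minimum count for it. Omissions of 1 library ended the call of Irf1 in 5 of 6 fits (adjusted p up to 0.11, without Activin replicate 3), Psmb8 in 1 of 6 fits (adjusted p up to 0.064, without Activin replicate 3), Zbp1 in 1 of 6 fits (adjusted p up to 0.055, without Activin replicate 3), Ddx58 in 5 of 6 fits (adjusted p up to 0.16, without untreated replicate 3) and Ifit1 in 5 of 6 fits (adjusted p up to 0.19, without untreated replicate 3) by edgeR.

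Genes of epithelial junctions and identity rose where they were called. Of 30 tested, 8 rose and 0 fell, beside 2.95% and 1.88% of all genes, with a median log2 fold change of 0.28, and the count was also 8 without untreated replicate 3. Epcam, an adhesion molecule of epithelia and pluripotent cells, went from 138, 137 and 147 CPM to 211, 205 and 209 CPM (log2 fold change 0.56 ± 0.08, adjusted p = 3.2e-04, edgeR). Grhl2, a transcription factor of epithelia, and Cldn3, a tight junction claudin, had log2 fold changes of 0.63 ± 0.12 and 0.81 ± 0.16. Cdh1, which encodes E-cadherin, was the most abundant of the called members, at 701, 690.1 and 794 CPM untreated and 847, 881 and 952 CPM with Activin A. The other called members were Rab25, Esrp1, Jup and Marveld3. Epcam, Grhl2 and Cldn3 kept their calls in all 6 omissions, whereas omissions ended that of Cdh1 in 4 of 6 fits (adjusted p up to 0.13, without Activin replicate 3), Rab25 in 3 of 6 fits (adjusted p up to 0.084, without Activin replicate 3), Esrp1 in 5 of 6 fits (adjusted p up to 0.14, without untreated replicate 3), Jup in 5 of 6 fits (adjusted p up to 0.19, without untreated replicate 3) and Marveld3 in 5 of 6 fits (adjusted p up to 0.12, without Activin replicate 3) by edgeR.

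Genes of the neural plate fell or did not pass the test. Of 24 tested, 0 were called higher and 4 lower (Sox21, Pax6, Sox1 and Irx3), beside 2.95% and 1.88% of all genes, and the median log2 fold change was -0.44. Sox1, a Sox factor of neuroectoderm, fell from 56.2, 50.6 and 53.6 CPM to 33.1, 31.5 and 36.3 CPM (log2 fold change -0.67 ± 0.12, adjusted p = 0.0049, edgeR). Under SB it was at 30.8, 32.5 and 24.1 CPM, which is below the untreated level too, unlike Sox21 and Pax6. Irx3, an Iroquois factor, had -0.87 ± 0.23. Of 24 neuronal genes, 2 were called higher (Stmn2 and Ebf1) and 2 lower (Insm1 and Tubb3), against the same shares of all genes. Omissions of 1 library ended the call of Irx3 in 5 of 6 fits (adjusted p up to 0.19, without untreated replicate 3) by edgeR. Without untreated replicate 3 the neural plate counts were 1 higher and 3 lower.

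In the FGF/ERK list, 5 of 25 genes were called higher and 1 lower, beside 2.95% and 1.88% of all genes. Of 6 ligands tested 3 were called: Fgf15, Fgf8, which patterns the primitive streak, and Fgf17. Fgf8 went from 1.76, 2.17 and 1.12 CPM to 8.11, 3.61 and 6.55 CPM. Spry1, a feedback inhibitor of receptor tyrosine kinases, rose from 69.3, 72.4 and 58.4 CPM to 102, 100.2 and 118 CPM (log2 fold change 0.68 ± 0.09, adjusted p = 1.6e-04, edgeR), and Myc from 46.2, 39.1 and 31.2 CPM to 64.3, 64.1 and 69.95 CPM. The receptor Fgfr2 was called lower, with a log2 fold change of -0.48 ± 0.13. Omissions of 1 library ended the call of Fgf8 in 5 of 6 fits (adjusted p up to 0.2, without untreated replicate 3), Fgf17 in 5 of 6 fits (adjusted p up to 0.18, without Activin replicate 3) and Fgfr2 in 5 of 6 fits (adjusted p up to 0.18, without Activin replicate 3) by edgeR. Without untreated replicate 3, 3 were called higher and 1 lower.

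Markers of developmental state that passed the test were few in number. The shares called higher in the primed epiblast and definitive endoderm lists were above the 2.95% of all genes. The share called lower in the naive list was above the 1.88% of all genes. Each of these shares rests on 2 genes. Of 14 core pluripotency genes 0 were called, near the 4.83% called over all genes. Of 19 primed epiblast genes, 2 were called higher (Dnmt3b and Foxd3) and 0 lower, and without untreated replicate 3 the counts were 3 and 0. Fgf5, a standard primed marker, had 13.9, 14.1 and 3.15 CPM untreated and 35.5, 33.2 and 36.5 CPM with Activin A, groups that did not overlap, but its log2 fold change of 1.74 ± 0.46 missed the threshold (adjusted p = 0.062, edgeR). Otx2 had 0.97 ± 0.33. Of 20 naive pluripotency genes, 0 were called higher and 2 lower (Spp1 and Zfp42), and without that library 1 was called lower. Klf2 and Esrrb had -0.66 ± 0.26 and -0.40 ± 0.15, and Zfp42 (Rex1) fell from 189, 167 and 187 CPM to 151, 144 and 129 CPM. Of 14 definitive endoderm genes, 2 were called higher, Trh and Ttr, and 1 without that library. Ttr, the transthyretin gene, was at or below the counting limit in the untreated libraries (0.0678, 0.145 and 0 CPM) and at 1.15, 1.99 and 1.65 CPM with Activin A, so no fold is given. Of the 6 libraries, only those with Activin A reached the filter's minimum count for Ttr. Its place among the genes tested may thus depend on the group where it is high. Omissions of 1 library ended the call of Zfp42 in 1 of 6 fits (adjusted p up to 0.091, without Activin replicate 3), Spp1 in 4 of 6 fits (adjusted p up to 0.12, without untreated replicate 3) and Trh in 5 of 6 fits (adjusted p up to 0.12, without Activin replicate 3) by edgeR.

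The other lists described here are set beside 2.95% of all genes called higher and 1.88% lower, so that a count of 0 or 1 in a list is near the background. The matrix list held a larger share of genes called lower than that, and the axon guidance, Notch and mitosis lists a larger share called higher. Each of these larger counts shrank without untreated replicate 3, and list counts without the other libraries are not given here. Of 21 genes of BMP signalling, the sister pathway through Smad1 and Smad5, 0 were called, with Id1 at -0.60 ± 0.52 and Bmp4 at -0.27 ± 0.11. For the cholesterol, housekeeping, ribosomal protein and immediate early lists, 0 of 23, 0 of 10, 0 of 20 and 0 of 12 were called. Of 32 matrix genes, 1 was called higher (Lama5) and 5 lower, among them Lama1, a laminin chain of early basement membranes, at -0.86 ± 0.14, and Ptn, the growth factor pleiotrophin, at 6.51, 3.99 and 5.69 CPM and 0.994, 0.181 and 0.926 CPM. The matrix counts were 1 higher and 2 lower without untreated replicate 3. Of 30 axon guidance genes, 4 were called higher, including the netrin receptor Unc5b (0.58 ± 0.08) and the secreted ligand Slit3 (0.82 ± 0.14), and 0 lower, and without untreated replicate 3 the count was 2. Of 15 Notch genes, 3 were called higher (Notch3, Hes6 and Hey1), and 1 without untreated replicate 3. Of 22 mitosis genes 3 were called higher (Top2a, Nusap1 and Bub1), and 0 without untreated replicate 3. Omissions of 1 library ended the call of Lama5 in 4 of 6 fits (adjusted p up to 0.088, without Activin replicate 2), Ptn in 1 of 6 fits (adjusted p up to 0.053, without untreated replicate 3), Notch3 in 3 of 6 fits (adjusted p up to 0.11, without Activin replicate 3), Hes6 in 5 of 6 fits (adjusted p up to 0.17, without Activin replicate 3), Hey1 in 5 of 6 fits (adjusted p up to 0.17, without untreated replicate 3), Top2a in 4 of 6 fits (adjusted p up to 0.13, without untreated replicate 3), Nusap1 in 5 of 6 fits (adjusted p up to 0.17, without untreated replicate 3) and Bub1 in 5 of 6 fits (adjusted p up to 0.13, without untreated replicate 3) by edgeR.

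Markers of other cell types that such cultures could hold were mostly not called. Of 13 trophoblast, 8 blood and endothelium and 9 heart and mesoderm genes, 0 were called, which is near the 4.83% called over all genes. One trophoblast gene (1 of 13) was called lower without untreated replicate 3. Of 12 fibroblast genes 1 was called lower (Col3a1), and 0 without that library. Of 19 extraembryonic endoderm genes 3 were called higher (Dab2, Amn and Ttr) and 3 lower (Lama1, Sparc and Plat), beside 2.95% and 1.88% of all genes, and the counts were also 3 and 3 without untreated replicate 3. As said above, Ttr may have passed the filter only through the Activin libraries. Dab2, an endocytic adaptor, rose from 39.4, 44.6 and 32.5 CPM to 69.5, 92.0 and 73.5 CPM (log2 fold change 1.01 ± 0.11, adjusted p = 2.0e-05, edgeR).

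**Figure D4:**
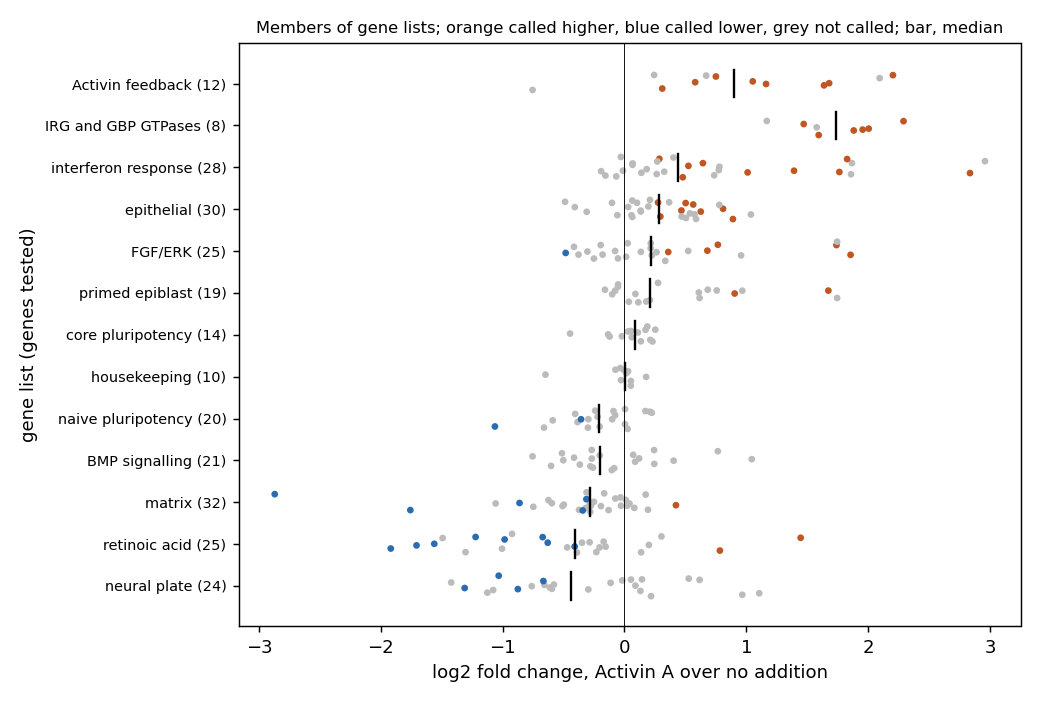
Fitted log2 fold changes (Activin A over no addition, control siRNA) of the members of 13 gene lists, with 1 point per tested gene and a black bar at the list's median; orange points were called higher, blue lower and grey were not called. The IRG and GBP GTPases have a median of 1.74 and the feedback genes 0.90, while retinoic acid and neural plate genes have medians of -0.41 and -0.44 and housekeeping genes lie near 0.

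The same addition of Activin A was made with Vprbp siRNA, in 6 libraries that are on neither side of the control siRNA comparison. All 15 libraries were fitted together, so both comparisons share each gene's estimate of spread, and their calls are not independent. Vprbp (Dcaf1) encodes the protein that brings substrates to a CRL4 ubiquitin ligase, and its own level in the control siRNA libraries was 173, 167 and 173 CPM untreated and 178, 175 and 184 CPM with Activin A. In the Vprbp siRNA libraries 894 genes (6.12%) were called by the same rule, 533 (3.65%) higher and 361 (2.47%) lower. Of the 431 genes higher with control siRNA, 258 (59.9%, and 48.4% of the 533) were also called higher there, and of the 274 lower, 128 (46.7%, and 35.5% of the 361) were also called lower. Of the 431, 427 had a positive estimate with Vprbp siRNA, and of the 274, 266 had a negative one, against 48.8% positive and 51.2% negative over all genes. None (0) was called in the opposite direction. Fitted with only its own libraries, the Vprbp siRNA comparison gave 373 calls, and the overlap was not counted for that fit. Untreated replicate 3 stood apart with both siRNAs. On principal component 1 of all 15 libraries it lay at 7.27 with Vprbp siRNA, against -6.27 and -12.3 for replicates 1 and 2. With control siRNA it lay at 15.6, against -1.77 and 0.863. Both lay on the side away from the Activin libraries, and whether a shared shift enters both comparisons was not tested. Activin replicate 1 with Vprbp siRNA also lay apart. On principal component 2 of all 15 libraries it was at 35.0, against 11.1 and -0.06 for Activin replicates 2 and 3 with that siRNA.

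Estimates for named genes can be set side by side. Stra8 had a log2 fold change of -1.92 ± 0.14 with control and -2.15 ± 0.15 with Vprbp siRNA, Slc39a8 1.83 ± 0.19 and 1.41 ± 0.18, Pmepa1 0.75 ± 0.09 and 0.94 ± 0.09, and Irgm2 2.29 ± 0.40 and 2.05 ± 0.35. Lefty1, called with control siRNA, had 1.35 ± 0.38 with Vprbp siRNA and missed the threshold there (adjusted p = 0.070, edgeR). The difference of the 2 responses was tested directly as an interaction, and 0 of 14600 genes (0%) were called by edgeR and 0 by DESeq2, with 517 genes at an unadjusted p below 0.05. The median standard error of that difference over the 705 genes was 0.17 on the log2 scale beside 0.12 for the response itself. A difference that misses the threshold does not show that the responses were equal.

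**Figure D5:**
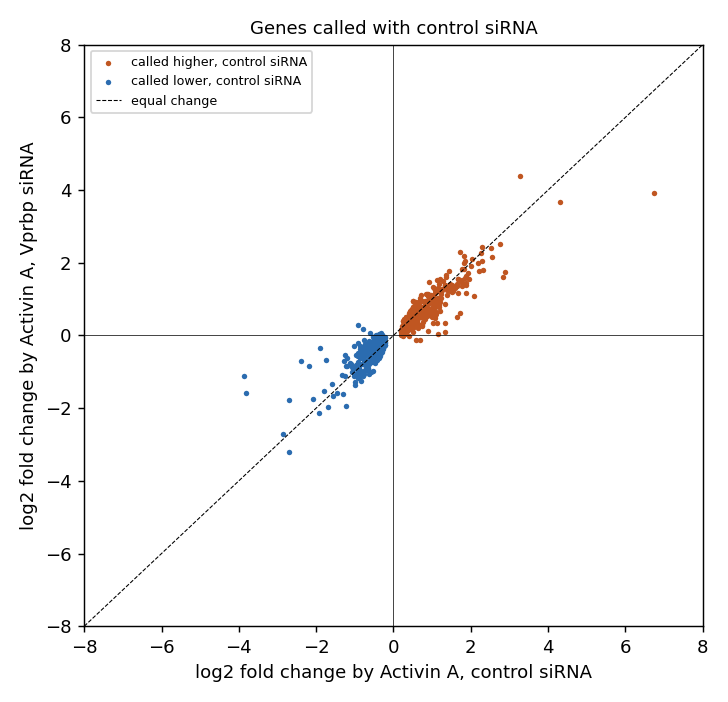
Fitted log2 fold changes by Activin A of the 705 genes called with control siRNA, on the horizontal axis with control siRNA and on the vertical axis with Vprbp siRNA; the dashed line marks equal change. Most points lie in the lower left and upper right quadrants, as 427 of 431 and 266 of 274 genes had the same sign.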

How the data were processed

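RNA sequencing was available for 15 libraries in 5 groups of 3. Groups and replicate numbers came from the sample titles, and table columns were matched through the sample descriptions. The authors deposited raw counts per gene symbol, without normalization. HTSeq 0.6.1p1 and the build mm10 are named per the submitters' processing notes; the aligner, annotation and strand option: not given in the sources used here. Of 24456 rows, 5 HTSeq tallies entered neither the library sizes nor the tests. Genes passing edgeR's filterByExpr (minimum count 10) were scaled by TMM factors (0.985 to 1.02) and fitted over all 15 libraries, with 1 mean per group, by edgeR 4.0.16 quasi-likelihood tests (robust) in R 4.3.3, with Benjamini-Hochberg adjustment over all genes and a threshold of 0.05. Standard errors were derived from the fold change and the F statistic. The biological coefficient of variation was 8.76%. Per library, 11.1 M to 15.5 M counts (M, mega) were assigned to genes, 55.6% to 60.4% of fragments.

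The members and gene lists were chosen with earlier results of these data known, so no list count is independent evidence. Named genes were the 12 largest rises and 12 largest falls by the rule given with them, the 6 largest gains and losses in mean CPM among called genes, up to 6 members with the smallest p of each list described, each called pathway part, and always Lefty1, Lefty2, Nodal and Vprbp; unnamed gene models were left out, and some genes that the rules name are not reported here. Lists held 798 genes, of which 730 were tested. Positions and promoter windows came from RefSeq tables on GRCm38 (identical to mm10), where 23249 symbols matched directly and 1078 through a synonym. Alternatives were RLE factors or library totals, other filters, DESeq2 1.42.0, fits with a replicate block or of the compared libraries alone, a minimum fold of 1.5, and omission of libraries.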

Additional observations from a re-analysis of the deposited data

How the results depend on the processing

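The control siRNA comparison gave 705 calls. It gave 706 with RLE factors, 660 with library totals, 660 without a filter, 719 with a filter of 1 CPM in 3 libraries, 760 with only its own 6 libraries and 917 with DESeq2. A test against a fold of 1.5 left 19 calls, and leaving out 1 library gave 265 to 721. With Vprbp siRNA (894 calls) the test against a fold of 1.5 left 38, fitting only the compared libraries 373, and leaving out 1 library gave 351 to 1167. Same-numbered libraries were not paired by the labels, and their deviations from group means correlated at 0.045, 0.0096 and 0.038; 2 of the 3 Activin libraries correlated best with their own number. With a replicate block 1058 genes were called. The difference of responses stayed at 0 calls in the other settings and gave 1 when untreated replicate 3 of both siRNAs and Activin replicate 1 of Vprbp siRNA were left out together, a choice made after seeing the data. That gene was Wnt8a (log2 difference 1.54, adjusted p = 0.0095, edgeR), and the control siRNA comparison then had 752 calls. The cause of these shifts was not tested. No named gene that was called changed direction in any setting. Depth limits genes near 0.198 to 0.271 CPM, where 3 counts are the limit.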
